A study of Mus musculus with 24 samples.

Results

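The insulin-like growth factor (IGF) system was read through 9 genes: the ligand genes Igf1 and Igf2, the receptor genes Igf1r and Igf2r, and the binding protein genes Igfbp2, Igfbp3, Igfbp4, Igfbp5 and Igfbp7. They were chosen by name as members of this signalling system, with earlier results of these data known, out of 55359 genes counted. All 9 were found. The cells were oligodendrocytes, which form the myelin of the brain, cultured from C57BL/6J mouse cortex of postnatal days 5 to 7. Cells carrying O4, a surface antigen of immature oligodendrocytes, were taken with magnetic beads, kept for 3 days with triiodothyronine as the main differentiation signal, and then kept for 3 days with or without ethanol. In experiment 1, 6 wells had 30 mM ethanol and 6 had none, and in experiment 2, which the labels give as another batch, 6 wells had 10 mM and 6 had none. Untreated plates stood in their own incubator, so the effect of ethanol cannot be told apart from that of the incubator, nor dose from experiment, since each dose was used in 1 experiment. The labels call the wells biological replicates without naming the preparation each came from, so p-values measure the spread between these wells.

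IGF1 and IGF2 are small secreted proteins related to insulin. Both act through the IGF1 receptor, a tyrosine kinase that signals through insulin receptor substrates to the PI3K-AKT-mTOR and RAS-MAPK pathways, and IGF1 is known to promote oligodendrocyte survival and myelin formation. The IGF2 receptor, which also carries mannose 6-phosphate-tagged enzymes to lysosomes, takes up IGF2 for degradation. The secreted IGF binding proteins hold the ligands, prolong their life and limit or direct their access to the receptor.

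The changes with ethanol that passed the test lay in the binding protein genes Igfbp2 and Igfbp3. Igfbp3 was lower at 30 mM and, by less and close to the threshold, at 10 mM, and Igfbp2 was lower at 30 mM. No ligand or receptor gene passed at either dose. Between the untreated cultures of the experiments, 6 of the 8 members that could be tested differed, led by Igf1, as did 43.6% of all genes tested.

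Igfbp2 and Igfbp3 carry the ethanol result and varied together from well to well, over wells that hold the ethanol contrast. For this reason the 250 bases before their transcription starts are shown, with those of Igfbp5, the genomic neighbour of Igfbp2. Igfbp2 and Igfbp5 lie on opposite strands with their 3′ ends facing each other, and Igfbp3 lies in the same way beside Igfbp1. The sequences come from RefSeq starts on build GRCm38.p6, each written 5′ to 3′ on the strand of its gene. Igfbp2 has 2 listed starts, with windows at chr1:72824230-72824479 (plus strand) and chr1:72825137-72825386 (plus strand). The window of Igfbp3 is chr11:7213924-7214173 (minus strand) and that of Igfbp5 is chr1:72874866-72875115 (minus strand). Capitals mark matches on either strand to any of 6 motifs, each counted on its own where motifs overlap: the TATA box TATAAA, the GC box GGGCGG, the E-box CACGTG, the FOXO core GTAAACA, the AP-1 site TGACTCA and the nuclear receptor half-site AGGTCA.
Igfbp2, start 1: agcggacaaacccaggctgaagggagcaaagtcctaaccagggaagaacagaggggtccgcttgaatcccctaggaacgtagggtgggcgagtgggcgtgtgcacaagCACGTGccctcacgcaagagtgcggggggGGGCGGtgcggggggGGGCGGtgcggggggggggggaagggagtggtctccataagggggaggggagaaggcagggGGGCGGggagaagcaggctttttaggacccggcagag
Igfbp2, start 2: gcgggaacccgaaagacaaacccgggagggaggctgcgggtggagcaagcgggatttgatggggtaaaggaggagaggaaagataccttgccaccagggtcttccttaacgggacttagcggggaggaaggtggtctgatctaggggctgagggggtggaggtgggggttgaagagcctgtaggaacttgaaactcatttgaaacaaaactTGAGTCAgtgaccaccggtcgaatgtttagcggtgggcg
Igfbp3: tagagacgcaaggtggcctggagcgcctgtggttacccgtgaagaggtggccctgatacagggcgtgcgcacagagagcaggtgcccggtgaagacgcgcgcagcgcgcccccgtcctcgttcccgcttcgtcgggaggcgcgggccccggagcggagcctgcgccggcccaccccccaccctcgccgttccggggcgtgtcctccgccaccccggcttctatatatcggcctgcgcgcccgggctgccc
Igfbp5: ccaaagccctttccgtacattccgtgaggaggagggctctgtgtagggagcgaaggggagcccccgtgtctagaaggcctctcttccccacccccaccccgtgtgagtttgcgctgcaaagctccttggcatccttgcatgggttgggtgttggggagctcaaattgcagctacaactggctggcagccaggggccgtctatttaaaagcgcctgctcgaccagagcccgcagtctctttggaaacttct
The first Igfbp2 window held 3 GC boxes and 1 E-box, and the second held 1 AP-1 site. The bases just after the first Igfbp2 start were found in no Igfbp2 transcript of GENCODE M21, unlike those after the other starts shown. These bases were sought anywhere within a transcript and not only where it begins, so the position of either Igfbp2 start was not tested. The Igfbp3 and Igfbp5 windows held no exact match to the 6 motifs, so Igfbp2 and Igfbp3 shared no exact match here. Variants of these letters, such as the tatata near the end of the Igfbp3 window, were not sought. Of 32851 mouse promoter windows of this length, 32.7% held the GC box, 6.02% the E-box, 4.46% the AP-1 site, 12.4% the TATA box, 3.17% the FOXO core and 14% the half-site. The Igfbp3 window was rich in G and C, at 73.2% with 32 CpG pairs, where the median of all windows was 52.4% with 6 pairs. The first Igfbp2 window had 67.2% with 14 pairs, and the Igfbp5 window 58.8% with 10 pairs.

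RNA was counted from tags near the 3′ end of transcripts, and levels are CPM, that is, counts scaled to the library size of the well with TMM factors, which are compared here between wells and not between genes. Total counts ranged from 1184609 to 1817028 per well, so that a floor of 3 counts was worth 1.67 to 2.50 CPM. All 10 oligodendrocyte markers examined, among them Mbp and Mog, were detected in every group. Their sum was 16433 CPM in replicate 1 at 30 mM and 6876 to 10076 CPM in the other 23 wells. Since that well stands apart, results at 30 mM are also given without it where it matters.

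At 30 mM, 2 of the 8 members tested passed an adjusted p of 0.05 by edgeR, both lower than in the controls, while 9.67% of 13235 genes passed, 6.65% lower and 3.02% higher. The median log2 fold change was -0.06 over the members and 0.02 over all genes. At 10 mM, 1 of 8 members passed, also lower, while 0.657% of 13538 genes passed, 0.266% lower and 0.391% higher. Here the medians were -0.06 and -0.0023. The 2 responses were compared by an interaction term over the 24 wells, in which 0 of 8 members passed by edgeR, DESeq2 or limma voom. By adjusted p, 3.28% of all 14655 genes passed that test by edgeR, 0.88% with a positive and 2.4% with a negative difference. An unadjusted p under 0.05 was found for 2 members, Igfbp2 and Igfbp3, a share not counted over all genes. Low unadjusted p were common in this test, where Igf2r, at 0.0944 by edgeR, ranked 3597 of 14655 genes. The member counts beside these shares are descriptions, since the members were chosen with earlier results of these data known.

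**Figure D1:**
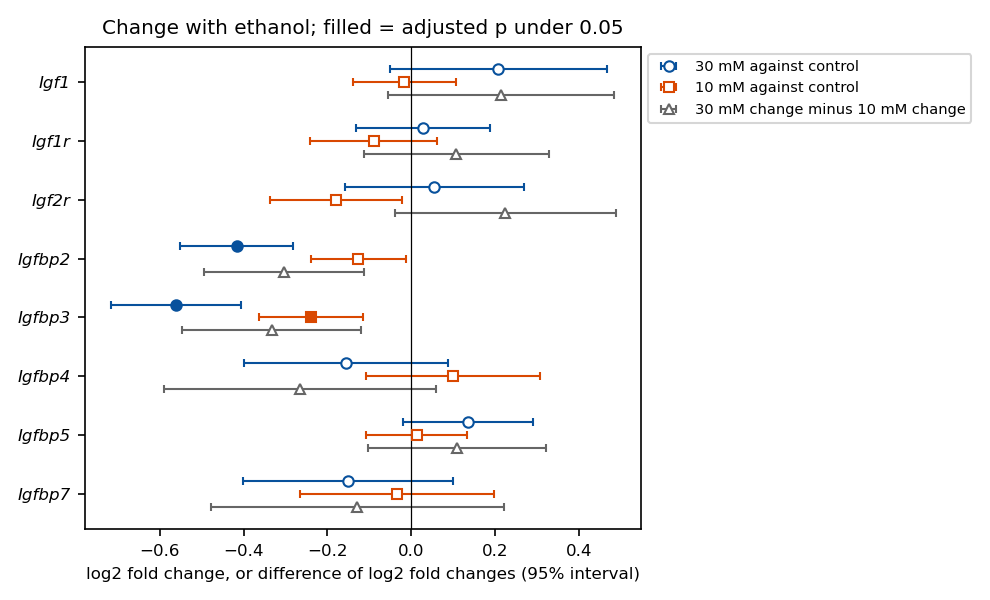
Log2 fold change (horizontal axis) of the 8 tested members at 30 mM and at 10 mM against the controls of the same experiment, and the difference between both changes, with 95% intervals from edgeR; filled symbols passed an adjusted p of 0.05. Igfbp2 and Igfbp3 lie left of 0 in all 3 contrasts, and the filled symbols are Igfbp2 at 30 mM (-0.42) and Igfbp3 at 30 mM (-0.56) and 10 mM (-0.24).

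Igf1, the main ligand in the postnatal brain, was counted in every well. At 30 mM the wells had 34.9 to 61.6 CPM (median 46.8), and their controls had 35.2 to 53.01 CPM (median 38.4). The ranges overlapped over most of their length. The log2 fold change was 0.21 (95% interval -0.05 to 0.47, adjusted p = 0.337 by edgeR). In experiment 2 the 10 mM wells had 192 to 221 CPM (median 206) and their controls 198 to 227 CPM (median 204), which overlapped as well. The change at 10 mM was -0.02 (95% interval -0.14 to 0.11, adjusted p = 0.961 by edgeR). Its interval held no change beyond 0.14 on the log2 scale in either direction. The responses to the doses differed by 0.21 (95% interval -0.06 to 0.48, adjusted p = 0.424 by edgeR), which did not pass. An antisense gene, Igf1os, overlaps the locus in GENCODE M21 and had group means of 4.46 to 7.71 CPM.

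Igf2, a growth factor gene expressed from the paternal allele, had 1 count in the 24 wells together, in a 10 mM well, and was not tested. This does not show that the transcript was absent. In GENCODE M21 the exons of Gm49394, a gene on the same strand, cover 99.4% of the last 500 exonic bases of Igf2, where 3′ tags fall. Gm49394 had 0 counts in every well, and how reads matching both genes were counted is not given in the sources used here. H19, the maternally expressed RNA gene beside Igf2, was counted in every well. It had 38.4 to 61.9 CPM at 30 mM against 42.7 to 84.9 CPM, and 61.7 to 79.5 CPM at 10 mM against 54.4 to 72.3 CPM, overlapping in both experiments.

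Among the receptors, Igf1r, the gene of the signalling receptor, had overlapping levels in all 4 groups. The wells had 107 to 134 CPM (median 125) at 30 mM and 109 to 134 CPM (median 122) in the controls. In experiment 2 they had 91.9 to 121 CPM (median 109) at 10 mM and 105 to 124 CPM (median 115) without ethanol. The log2 fold change was 0.03 (95% interval -0.13 to 0.19, adjusted p = 0.875 by edgeR) at 30 mM. At 10 mM it was -0.09 (95% interval -0.24 to 0.06, adjusted p = 0.754 by edgeR). Both intervals lie within 0.25 of 0 on the log2 scale.

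Igf2r, the gene of the clearance receptor, had 50.2 to 67.9 CPM (median 63.9) at 30 mM and 49.7 to 72.00 CPM (median 58.1) in the controls. The wells overlapped, with a log2 fold change of 0.06 (95% interval -0.16 to 0.27, adjusted p = 0.799 by edgeR). With 10 mM the wells had 85.6 to 106 CPM (median 90.96) and the controls 95.4 to 121 CPM (median 103), again overlapping. This change was -0.18, with an unadjusted p of 0.0255 and an adjusted p of 0.410 by edgeR, and did not pass. Airn, an antisense RNA gene known to silence the paternal Igf2r allele, overlaps the locus and had group means of 5.02 to 7.50 CPM.

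Igfbp3 encodes the main carrier of IGFs in blood, a protein that many cell types secrete. At 30 mM the wells, in replicate order, had 423, 312, 284, 323, 331 and 257 CPM. Their controls had 413, 468, 530.0, 523, 494 and 439.9 CPM. All ethanol wells but replicate 1 lay below every control, and replicate 1 lay just above the lowest control. The mean was 478 ± 46.5 CPM in the controls and 322 ± 56.5 CPM with ethanol (SD, n = 6 each), a log2 difference of -0.56 (95% interval -0.72 to -0.41, adjusted p = 1.11e-06 by edgeR). Without replicate 1 it was -0.66 (adjusted p = 7.38e-11 by edgeR).

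At 10 mM Igfbp3 was lower by less. The ethanol wells had 320.5, 299, 269.9, 262, 256 and 287 CPM in replicate order and the controls 284, 336, 338, 383, 333 and 308 CPM. Of the ethanol wells, 3 lay below every control and 3 among the lower controls, so the groups overlapped. The mean was 330.4 ± 33.4 CPM in the controls and 282 ± 24.7 CPM with ethanol (SD, n = 6 each), a log2 difference of -0.24 (95% interval -0.36 to -0.12, adjusted p = 0.0416 by edgeR). The call was lost in a joint fit of the 24 wells (adjusted p = 0.279 by edgeR), with limma voom (adjusted p = 0.0557), with the replicate number as a block (adjusted p = 0.0859 by edgeR), with no filter on low counts (adjusted p = 0.148 by edgeR) and in 9 of 12 fits without 1 well, all but those without replicate 1 or 6 at 10 mM or control replicate 1. Across those 12 fits the change ran from -0.28 to -0.19.

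Igfbp2 encodes a binding protein abundant in the developing brain and in cerebrospinal fluid. At 30 mM the wells had 1296, 1129, 1105, 1122, 1109 and 1020.1 CPM in replicate order. The controls had 1324, 1313, 1676, 1789, 1631 and 1369 CPM. Every ethanol well lay below every control, and the gap was narrow. Groups apart in this way were found for 4.1% of all genes tested, 3.1% in the lower direction. The mean was 1517 ± 206 CPM in the controls and 1130.3 ± 90.3 CPM with ethanol (SD, n = 6 each), a log2 difference of -0.42 (95% interval -0.55 to -0.28, adjusted p = 1.71e-05 by edgeR). At 10 mM the wells had 579 to 804 CPM (median 719) and the controls 688 to 819 CPM (median 766), and they overlapped. That change was -0.13, with an unadjusted p of 0.0292 and an adjusted p of 0.436 by edgeR, and did not pass.

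For both genes the change was larger at 30 mM than at 10 mM, but the difference did not pass. It was -0.30 (95% interval -0.49 to -0.11, adjusted p = 0.0603 by edgeR) for Igfbp2. For Igfbp3 it was -0.33 (95% interval -0.55 to -0.12, adjusted p = 0.0656 by edgeR). Without replicate 1 at 30 mM both differences passed, at -0.37 for Igfbp2 (adjusted p = 0.0105 by edgeR) and -0.45 for Igfbp3 (adjusted p = 0.00216 by edgeR). With no filter on low counts both passed as well (adjusted p = 0.0308 and 0.0223 by edgeR). Both also passed without control replicate 1 or 6 of experiment 1 or control replicate 4 of experiment 2. Igfbp2 alone passed without replicate 2 at 30 mM, control replicate 2 of experiment 1, or replicate 5 or 6 at 10 mM.

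**Figure D2:**
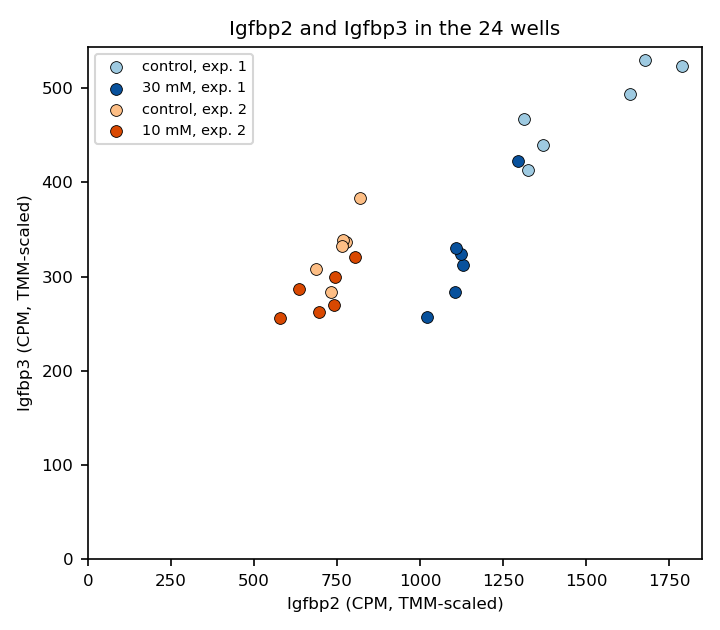
Igfbp2 (horizontal axis) against Igfbp3 (vertical axis), both in CPM from 0, in each of the 24 wells, coloured by group. The 30 mM wells have 1020.1 to 1296 CPM of Igfbp2, below all controls of experiment 1 (1313 to 1789 CPM), and their highest well for both genes, replicate 1, lies beside the lowest controls.

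The other binding protein genes did not pass at either dose. Igfbp5, whose product binds to extracellular matrix, had 428, 717, 590.3, 543, 574 and 523 CPM at 30 mM in replicate order and 434 to 562 CPM (median 520.1) in the controls. The wells overlapped, with the lowest and the highest of the 12 among the ethanol wells. The log2 fold change was 0.14 (95% interval -0.02 to 0.29, adjusted p = 0.287 by edgeR). Without replicate 1, the lowest well, it was 0.21 and passed (adjusted p = 0.0307 by edgeR), so that 1 well decides this call. Over the 12 fits without 1 well the change ran from 0.05 to 0.21, with adjusted p up to 0.689 by edgeR. It passed in 1 of them. At 10 mM the wells had 346 to 450.3 CPM against 348 to 463 CPM, overlapping, with a change of 0.01 (95% interval -0.11 to 0.13, adjusted p = 0.968 by edgeR).

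Igfbp4 encodes a binding protein that the protease PAPPA cleaves to free its ligand. It had 36.2 to 57.3 CPM (median 50.9) at 30 mM and 36.4 to 66.98 CPM (median 56.1) in the controls, a change of -0.16 (95% interval -0.40 to 0.09, adjusted p = 0.464 by edgeR). At 10 mM it had 43.6 to 68.4 CPM (median 53.7) against 43.1 to 56.3 CPM (median 50.7), a change of 0.10 (95% interval -0.11 to 0.31, adjusted p = 0.813 by edgeR). The groups overlapped in both experiments. Igfbp7, whose product binds IGFs only weakly, had 36.5 to 77.7 CPM (median 56.6) at 30 mM against 49.7 to 67.3 CPM (median 61.5), so that the ethanol wells reached past the controls on both sides. Its changes were -0.15 (95% interval -0.40 to 0.10, adjusted p = 0.492 by edgeR) at 30 mM and -0.03 (95% interval -0.27 to 0.20, adjusted p = 0.957 by edgeR) at 10 mM. Without replicate 1 at 30 mM the first was -0.06 (adjusted p = 0.784 by edgeR), and over the 12 fits without 1 well it ran from -0.29 to -0.06, passing in none. Exons of Polr2b on the opposite strand cover 17.0% of the last 500 exonic bases of Igfbp7, and the use of strand in counting is not given in the sources used here.

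**Figure D3:**
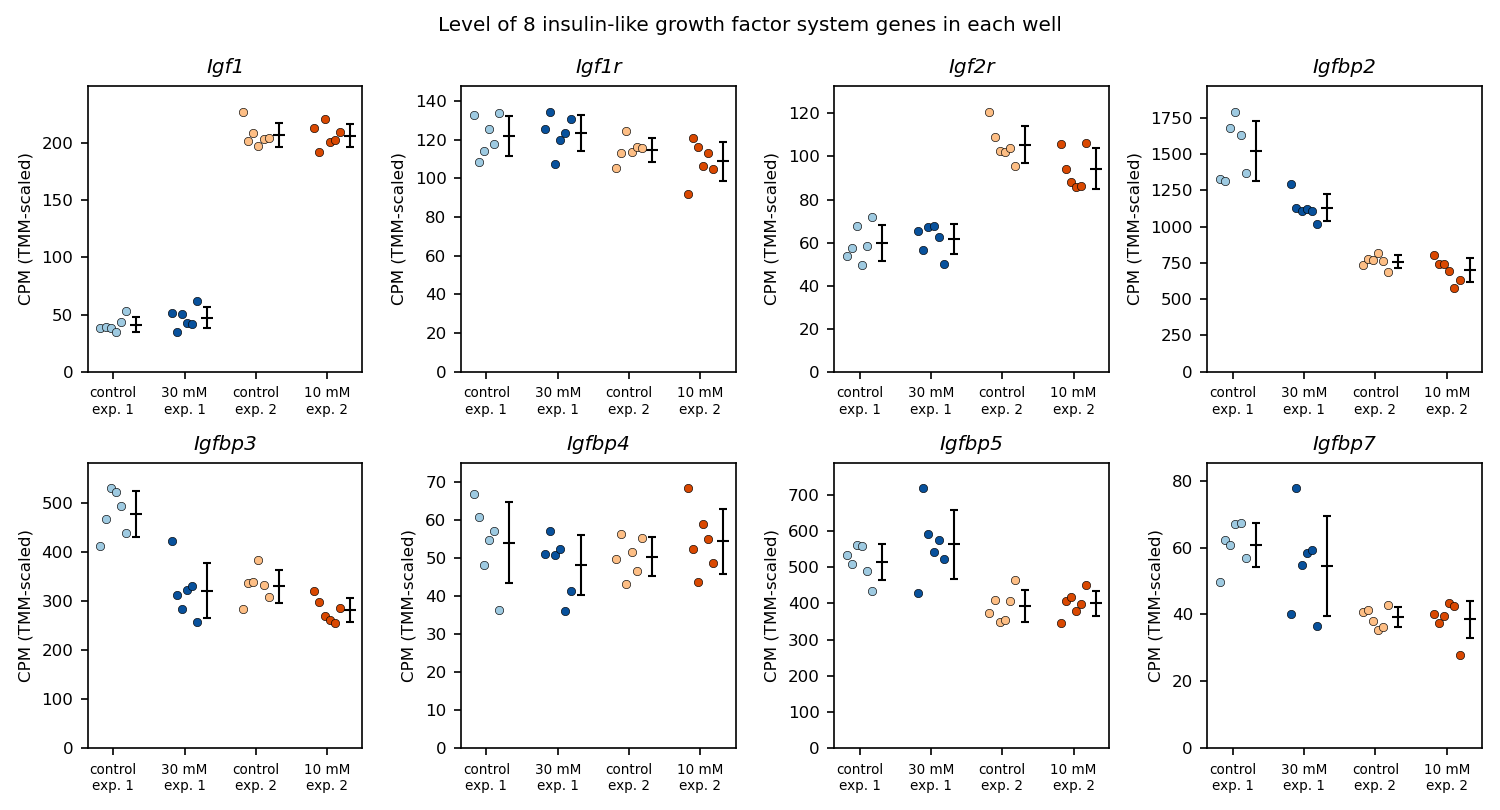
Level in CPM (vertical axis, from 0) of 8 members in every well; points are wells, and the bar beside each group is its mean with the SD (n = 6). Igf1 and Igf2r step between the experiments, Igfbp2 and Igfbp3 also step down from controls to 30 mM, and the 4 groups of Igf1r and of Igfbp4 overlap.

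The untreated cultures were compared because they are the background on which each dose was read. Of the 8 members, 6 passed by edgeR, 4 higher and 2 lower in experiment 1, while 43.6% of 13479 genes passed, 21.3% higher and 22.3% lower. Igf1 was 5.17-fold lower in experiment 1, with 41.2 ± 6.46 against 207 ± 10.5 CPM (SD, n = 6 each), a log2 difference of -2.37 (95% interval -2.54 to -2.20, adjusted p = 4.29e-41 by edgeR). Igf2r was lower too, by 1.81-fold (adjusted p = 1.99e-13 by edgeR). Igfbp2 was 1.97-fold higher in experiment 1 (adjusted p = 1.58e-25 by edgeR). Igfbp7 was 1.52-fold higher, Igfbp3 1.43-fold and Igfbp5 1.29-fold, with adjusted p of 1.57e-06, 5.12e-11 and 6.9e-07 by edgeR. The wells did not overlap for Igf1, Igf2r, Igfbp2, Igfbp3 and Igfbp7, as for 18.9% of all genes, 10.9% higher and 8.03% lower in experiment 1. Igf1r (0.06, adjusted p = 0.546 by edgeR) and Igfbp4 (0.08, adjusted p = 0.563 by edgeR) did not pass.

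Microglia, the immune cells of the brain, are a known source of IGF1 in early postnatal life. The 14 microglia markers examined were detected in every group, and their sums were 241 to 411 CPM in the controls of experiment 1 and 3045 to 3619 CPM in those of experiment 2. All 12 that could be tested were lower in experiment 1, against 22.3% of all genes, with a median log2 fold change of -3.35. With ethanol the sums were 241 to 395 CPM at 30 mM and 3270.4 to 3887 CPM at 10 mM. These overlapped the controls of the same experiment. By edgeR 1 of 8 tested markers was higher at 30 mM, against 3.02% of all genes, and log2 fold changes ran from -0.25 to 1.07 (median -0.03). At 10 mM 2 of 12 were higher, against 0.391% of all genes, and changes ran from -0.29 to 0.35 (median 0.06). Igf1 and the microglia markers thus stepped in the same direction between experiments, Igf1 by less. In bulk samples fewer cells of a type and less RNA per cell cannot be told apart, and the part of microglia in the Igf1 difference was not tested.

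**Figure D4:**
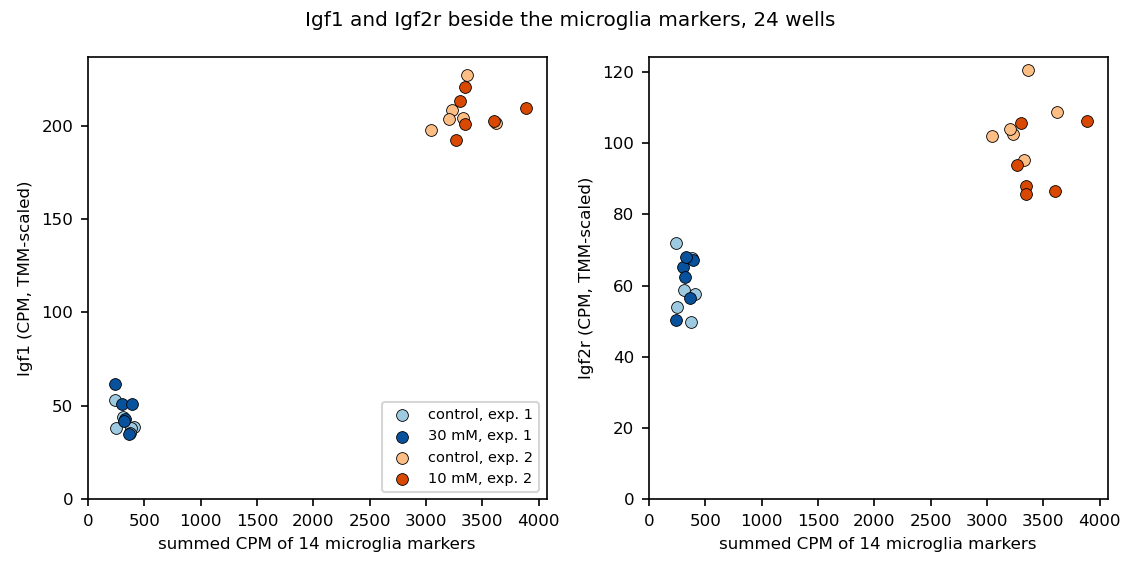
Igf1 (left) and Igf2r (right) in CPM against the summed CPM of 14 microglia markers, in the 24 wells, coloured by group. Wells of experiment 1 lie at 241 to 411 CPM of the markers and those of experiment 2 at 3045 to 3887 CPM, and within each experiment ethanol and control wells overlap for both genes.

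Some markers of oligodendrocytes and of other cell types also changed at 30 mM, where Igfbp2 and Igfbp3 fell and where 6.65% of all genes were lower and 3.02% higher. The 10 mural and smooth muscle markers had sums of 164 to 301 CPM with ethanol and 511 to 664 CPM without, and 3 of 7 tested were lower. These were the genes of contractile proteins Acta2 (-1.60), Tagln (-1.68) and Cnn1 (-1.91, log2 fold changes), which made up most of the sum in the controls. The other 4, among them the pericyte markers Pdgfrb and Rgs5, had changes of -0.08 to 0.24 that did not pass, 3 of them positive, and the median of the list was -0.08. The 10 fibroblast and meningeal markers had 341 to 402 against 484 to 757 CPM, and 5 of 10 were lower, with a median of -0.41. The 10 astrocyte markers had 5922 to 7384 against 4248 to 5291 CPM, with 6 of 10 higher and a median of 0.36. The 10 oligodendrocyte markers had 9595 to 16433 against 7452 to 9158 CPM, without overlap, with 8 of 10 higher and a median of 0.44. At 10 mM, where Igfbp3 was lower by less, the mural sums were 93.2 to 128 against 109.8 to 142 CPM and the fibroblast sums 614 to 664 against 592 to 804 CPM, both overlapping, with 0 of 6 and 2 of 10 lower by edgeR, against 0.266% of all genes. The oligodendrocyte sums were 8358 to 9266 against 6876 to 8802 CPM, overlapping, with 3 of 10 markers higher against 0.391% of all genes, all 10 changes positive and a median of 0.17. The part of these cell types in the fall of Igfbp2 and Igfbp3 was not tested. Sums of the 6 precursor, 8 endothelial and 6 neuron markers overlapped at 30 mM, at 512 to 644 against 588 to 644, 47.4 to 84.9 against 53.1 to 72.6 and 529 to 598 against 561 to 732 CPM. By edgeR 0 of 6 precursor and 0 of 3 tested endothelial markers passed at 30 mM. Of the 6 neuron markers 2 were lower there, against 6.65% of all genes, while 4 changes were positive and the median was 0.18. At 10 mM 1 neuron marker was higher and 1 lower, against 0.391% and 0.266% of all genes. The endothelial marker Cldn5 had 0 counts in 3 of the 4 groups.

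To see which genes varied with each member from well to well, log2 CPM was centred on the mean of each experiment and correlated over the 24 wells, among 13345 genes. These Pearson correlations are descriptions, since the wells share library depth and hold the ethanol contrast. The genes most like Igfbp2 were Igfbp3 (0.90), Myl12a (0.89) and Cd9 (0.87), and those most like Igfbp3 were Myl12a (0.93), Igfbp2 (0.90) and Cd9 (0.88). Myl12a encodes a regulatory light chain of non-muscle myosin and Cd9 a tetraspanin of the cell surface. Both were picked on wells that hold the ethanol contrast, so their own changes are given with no test. For Myl12a the log2 fold change was -0.47 at 30 mM and -0.15 at 10 mM, and for Cd9 it was -0.22 and -0.08. No other pair of members came near the likeness of Igfbp2 and Igfbp3. The next was Igfbp5 and Igfbp7 at 0.32 and the lowest Igf1 and Igfbp7 at -0.64. Igfbp2 and Igfbp3 were the members that passed at 30 mM, and that contrast is part of their correlation. The genes most like Igf1 were Gm46565 (0.77), Gm45130 (0.77) and Pik3c2b (0.74). For the receptors they were Chmp2b (0.65), Spink10 (0.63) and Erbb4 (0.62) with Igf1r, and Zc3h14 (0.75), Dlat (0.65) and Smim13 (0.64) with Igf2r. For the other binding proteins they were Apod (0.74), Bgn (0.70) and Prrx1 (0.70) with Igfbp4, Trim30a (0.79), Cyp4f13 (0.76) and Gfap (0.72) with Igfbp5, and Slc25a45 (0.74), Irgm1 (0.69) and Mbd1 (0.67) with Igfbp7.

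The wider IGF system was read from 21 further genes for binding proteins, insulin and its receptor, substrates, adaptors, proteases and mRNA-binding proteins. At 30 mM, 2 of 14 tested passed, both lower, where 9.67% of all genes passed and 6.65% were lower, with a median log2 fold change of -0.05. At 10 mM, 0 of 13 passed by edgeR, DESeq2 or limma voom, against 0.657% of all genes by edgeR. Of the 13, 1 had an unadjusted p under 0.05, a share not counted over all genes, and the median was -0.09. Igfbp2, at an unadjusted p of 0.0292 by edgeR, ranked 906 of 13538 genes at this dose. Igfbpl1, a gene of the binding protein family, had 44.97 to 71.6 CPM (median 52.6) at 30 mM and 69.7 to 93.6 CPM (median 76.7) in the controls, overlapping slightly. It fell by 0.53 on the log2 scale (standard error 0.105, adjusted p = 0.000462 by edgeR). Grb10 encodes an adaptor that binds the activated insulin and IGF1 receptors and dampens their signal. It had 11.8 to 22.9 CPM (median 15.4) at 30 mM and 23.97 to 35.2 CPM (median 26.8) in the controls, without overlap, and fell by 0.75 on the log2 scale (standard error 0.170, adjusted p = 0.00250 by edgeR). Igfbp1, the neighbour of Igfbp3, had 1 count in the 24 wells and was not tested. Without replicate 2 at 30 mM 4 genes of this list passed, the further ones being Igf2bp1 and Irs2.

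In the PI3K-AKT-mTOR pathway, downstream of the IGF1 receptor, 31 of 32 listed genes were tested. At 30 mM 2 rose and 3 fell, against 3.02% and 6.65% of all genes, with a median of -0.0052. At 10 mM 0 passed by edgeR, DESeq2 or limma voom, against 0.657% of all genes by edgeR. Of the 31, 1 had an unadjusted p under 0.05, a share not counted over all genes, and the median was 0.03. Eif4ebp1, whose product blocks translation initiation until mTOR phosphorylates it, had 55.1 to 60.5 CPM (median 58.2) at 30 mM and 80.4 to 95.3 CPM (median 82.7) in the controls. These were apart, and it fell by 0.54 on the log2 scale (standard error 0.0893, adjusted p = 3.41e-05 by edgeR). Pik3cb, a catalytic subunit gene of PI3K, had 14.2 to 22.2 CPM (median 18.01) against 22.5 to 41.3 CPM (median 28.9), also apart, and fell by 0.74 on the log2 scale (standard error 0.170, adjusted p = 0.00278 by edgeR). Pik3r1, a regulatory subunit gene, had 207 to 256 CPM (median 232) against 166 to 220.4 CPM (median 188), overlapping, and rose by 0.29 on the log2 scale (standard error 0.0707, adjusted p = 0.00422 by edgeR).

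Rps6, a ribosomal protein gene, fell by 0.34 on the log2 scale (standard error 0.09995, adjusted p = 0.0213 by edgeR). Its count is uncertain, since ribosomal protein genes have near-identical pseudogenes, and the call was lost without replicate 6 at 30 mM (adjusted p = 0.0941 by edgeR) or control replicate 5 (adjusted p = 0.0824 by edgeR). Ddit4, an inhibitor of mTOR that stress induces, rose by 0.41 on the log2 scale (standard error 0.128, adjusted p = 0.0313 by edgeR). That call was lost in 7 of 12 fits without 1 well, furthest without replicate 1 at 30 mM (adjusted p = 0.127 by edgeR), and with DESeq2 (adjusted p = 0.0854) and limma voom (adjusted p = 0.0533).

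In the RAS-MAPK pathway all 22 listed genes were tested. At 30 mM 0 passed by edgeR, DESeq2 or limma voom, against 9.67% of all genes by edgeR. Log2 fold changes ran from -0.39 to 0.28 (median -0.04). An unadjusted p under 0.05 was found for 7, a share not counted over all genes. Low unadjusted p were common at this dose, where Igfbp5, at 0.0852 by edgeR, ranked 3922 of 13235 genes. Without replicate 2 at 30 mM Gab1 and Mapk3 passed, Gab1 also without replicate 5 or 6 or control replicate 1, and Rps6ka1 without control replicate 5. Gab1 passed too in the joint fit of 24 wells and with the replicate block, and at a threshold of 0.1 the 3 genes passed together. At 10 mM 0 passed by the same tools, against 0.657% of all genes by edgeR. Here 1 had an unadjusted p under 0.05, again with no share counted over all genes, and changes ran from -0.24 to 0.19 (median 0.01).

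Since Igf2 and Igf2r are imprinted, 12 other imprinted genes were listed, of which 11 were tested at each dose. At 30 mM 1 rose and 2 fell, against 3.02% and 6.65% of all genes, with a median of 0.009. At 10 mM 0 passed by edgeR, DESeq2 or limma voom, against 0.657% of all genes by edgeR. Here 2 had an unadjusted p under 0.05, a share not counted over all genes, and the median was -0.05. Dlk1, which encodes a relative of the Notch ligands, had 27.5 to 34.5 CPM (median 31.6) at 30 mM and 13.3 to 24.1 CPM (median 20.1) in the controls, without overlap, and rose by 0.72 on the log2 scale (standard error 0.154, adjusted p = 0.00119 by edgeR). Cdkn1c, an inhibitor of cyclin-dependent kinases, had 11.1 to 21.6 CPM (median 15.5) against 20.6 to 41.9 CPM (median 32.6), overlapping slightly, and fell by 0.94 on the log2 scale (standard error 0.177, adjusted p = 0.00022 by edgeR). Plagl1, a zinc finger factor, had 17.2 to 39.9 CPM (median 24.4) against 34.02 to 46.3 CPM (median 41.4), overlapping, and fell by 0.62 on the log2 scale (standard error 0.155, adjusted p = 0.00624 by edgeR).

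**Figure D5:**
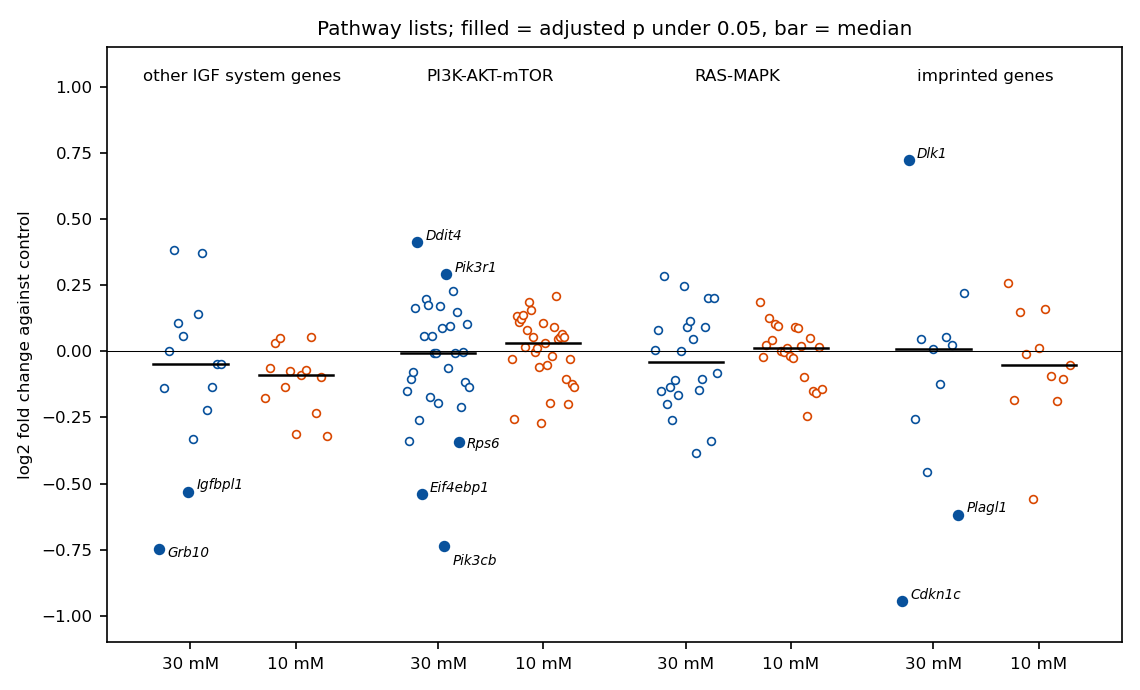
Log2 fold change (vertical axis) of each tested gene of the 4 lists at 30 mM and at 10 mM against the controls of the same experiment; filled, named points passed an adjusted p of 0.05 and bars are medians. The filled points all lie at 30 mM, and the medians lie between -0.09 and 0.03.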

How the data were processed

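The deposited file holds whole-number counts per Ensembl gene for 24 wells, made by the authors from 3′ tag reads (3′ TagSeq, per the labels' protocols). The submitters' processing notes name cutadapt 1.18, STAR and the build GRCm39. The counting tool, annotation release, use of strand and removal of duplicate reads are not given in the sources used here. Symbols were matched for 94.1% of identifiers.

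Computed here were CPM and log2 CPM with TMM factors (0.944 to 1.04, prior count 2), after the edgeR filter for low counts (minimum count 10), and edgeR quasi-likelihood tests with Benjamini-Hochberg adjustment over all genes tested and a threshold of 0.05 (R 4.3.3, edgeR 4.0.16, limma 3.58.1, DESeq2 1.42.0). Each experiment was fitted on its own 12 wells, the control groups on the 12 untreated wells, and the difference between the doses on all 24. Same-group wells differed by more than sampling noise in all 60 pairs. The tests were also run on counts simulated from the means and dispersions of these data, with the outcome not given here. Alternatives were DESeq2 size factors, no filter, DESeq2, limma voom, a threshold of 0.1, a joint fit, a replicate block and leaving out each well. DESeq2 gives no adjusted p to genes under its own filter on the mean count, which are then neither called nor lost.

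Members and lists were chosen with earlier results of these data known. Named were all members, list genes that passed at either dose (at most 6 per list and dose), and the 3 genes most correlated with each member. Genes named from alternative fits, the single mural markers named, and the antisense, overlapping and neighbouring genes, were chosen after their values were seen. Floors cover counting error only. The reference used for promoters and neighbouring genes is GRCm38, another build than that of the counts, so no coordinates were joined between them.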

Additional observations from a re-analysis of the deposited data

Results flagged for a closer look

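Igf1 in control replicate 1 of experiment 2 was 227 CPM, with the next well at 208 and the lowest at 198 CPM, so that its gap to the others took 0.632 of the range of the group. It was the 1 such well among 32 sets of 6 wells examined, where chance gives about 1.6.

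The response of 3 genes of the pathway lists differed between 30 mM and 10 mM by the interaction test, where 3.28% of all 14655 genes passed. They were 1 of 31 tested PI3K-AKT-mTOR genes and, of 12 imprinted genes, 1 with a positive and 1 with a negative difference. Of the other IGF system and RAS-MAPK genes, 0 of 17 and 0 of 22 passed. The difference of log2 fold changes was -0.63 (adjusted p = 0.00368 by edgeR) for Eif4ebp1, 0.89 (adjusted p = 0.0287 by edgeR) for Dlk1 and -1.22 (adjusted p = 0.00464 by edgeR) for Cdkn1c. The Dlk1 difference lost its call in 6 of 24 fits without 1 well and with no filter on low counts (adjusted p = 0.0929 by edgeR). The Cdkn1c call was kept in all of these. DESeq2 gave no adjusted p for Dlk1 or Cdkn1c here, so neither was called by it. Dose and experiment cannot be told apart here.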

How the results depend on the processing

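Igfbp2 and Igfbp3 passed at 30 mM under every alternative run, and the 6 members that differed between the control groups did so in all. Leaving out 1 well gave 2 to 3 members at 30 mM. The member count at 10 mM went from 1 to 0 with no filter on low counts, limma voom, the joint fit of 24 wells and the replicate block, and was 0 to 1 without 1 well. The replicate numbers do not pair the wells (same-number correlations -0.18 to 0.25 in experiment 1 and -0.04 to 0.04 in experiment 2, with 1 and 0 of 6 wells best matched by their own number). With the block Igfbp3 at 10 mM was -0.24 (adjusted p = 0.0859 by edgeR). Members differing between the doses went from 0 to 2 with no filter and at a threshold of 0.1, and were 0 to 2 without 1 well. The cause was not tested.

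Over all genes, 89 passed at 10 mM, 150 at a threshold of 0.1, 21 in the joint fit and 37 to 95 without 1 well, moving by over 1.5 times without replicate 2 or 4 at 10 mM or control replicate 4, 5 or 6. Between the doses 481 passed, 854 at a threshold of 0.1 and 329 to 759 without 1 well, moving as much without replicate 1 or 2 at 30 mM. Changes near 0 that never passed turned sign: with no filter Igf1r at 30 mM was -0.0025 and Igf1 at 10 mM 0.0064. Without 1 well the ranges were -0.0032 to 0.068 for Igf1r and -0.0028 to 0.11 for Igf2r at 30 mM, and -0.038 to 0.013 for Igf1, -0.018 to 0.073 for Igfbp5 and -0.080 to 0.054 for Igfbp7 at 10 mM. Igf2 and Igfbp1 lay under the floor in every well, and how reads matching both Igf2 and Gm49394 were counted is not given.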
